A study of Mus musculus with 23 samples.

Results

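Mouse embryos labelled heterozygous for Eif4enif1 (Eif4enif1+/-, het) that were still at the 1-cell stage after 24 h in culture (arrested) were compared with wild-type (WT) 1-cell embryos. The comparison rests on 6 of the 23 libraries of the series, 3 arrested het and 3 WT 1-cell, chosen by their labels. The other libraries are 8 from germinal vesicle oocytes, 3 from het 1-cell embryos, and 3 each from het and WT 2-cell embryos cultured for 24 h. WT 1-cell embryos carry the treatment label none, so genotype label, time in culture and arrest differ together between the groups compared and cannot be told apart. The labels do not say whether an embryo's genotype is its own or its mother's, nor how many embryos went into a library, nor whether libraries came from different females. No strain or age is given. P-values therefore measure a spread between libraries, which may in part be technical. That spread was estimated jointly over 12 libraries, the 6 compared and those of het and WT 2-cell embryos.

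Eif4enif1 encodes 4E-T, which binds the cap-binding protein eIF4E and is part of the complexes that hold mRNAs silent in oocytes. A fertilised mouse egg starts with mRNA stored by its mother. During the 1-cell and 2-cell stages most of that mRNA is cleared and the embryo's own genome is switched on, with a minor wave of transcription in the zygote and a major wave at the 2-cell stage. An embryo that does not cleave can therefore differ from a fresh zygote in maternal mRNA that has been lost, in embryonic transcripts that have appeared, or in neither.

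Levels are counts divided by the TMM-scaled library total (CPM), that is, shares of a library, so a change in the total mRNA of an embryo does not show in them, and fewer cells and less RNA per cell cannot be told apart. Total counts were 16712901, 19158990 and 16056598 in the arrested libraries, against 18321744, 17994629 and 21693238 in the WT 1-cell libraries. The arrested libraries had 13674, 17357 and 19825 genes with at least 10 counts, and the WT 1-cell libraries 15495, 15124 and 15620. All 12 defining oocyte and zygote markers were detected in both groups, with summed levels of 15973, 5734 and 5536 CPM in arrested and 19192, 14726 and 16984 CPM in WT 1-cell libraries. The 3 arrested libraries were not alike. Spearman's rho across genes, a description over genes that are not independent, put arrested library 1 at 0.848 to 0.855 with the WT 1-cell libraries and at 0.531 to 0.652 with the 2-cell libraries. Arrested library 2 went the other way, at 0.744 to 0.807 with 2-cell libraries and 0.582 to 0.585 with WT 1-cell libraries. Arrested library 3 lay between, at 0.724 to 0.861 with 2-cell and 0.706 to 0.717 with WT 1-cell libraries, and was closest to het 2-cell library 1. WT 1-cell libraries correlated with each other at 0.942 to 0.955. Results are therefore given library by library, and again without single libraries.

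**Figure D1:**
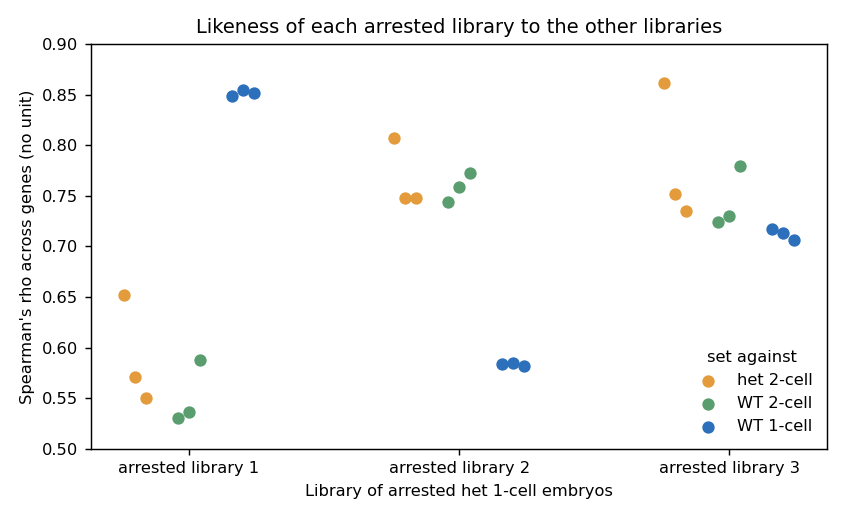
Spearman's rho across genes (vertical axis, no unit) between each library of arrested het 1-cell embryos (horizontal axis) and every het 2-cell, WT 2-cell and WT 1-cell library, 1 point per pair. Arrested library 1 sits at 0.848 to 0.855 with WT 1-cell libraries, above all its 2-cell points; arrested library 2 shows the reverse order.

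Of 22730 genes tested, 2853 were higher (12.6%) and 1071 lower (4.71%) in arrested het than in WT 1-cell embryos, by edgeR's quasi-likelihood test at a Benjamini-Hochberg adjusted p under 0.05 (called, and in what follows a gene "rose" or "fell" only if called). The median log2 difference over all genes tested, arrested over WT 1-cell, was 0.43, and single lists are read beside it. Of the genes that rose, 1065 had no count in any WT 1-cell library, and of those that fell, 73 had none in any arrested library. Groups did not overlap for 11.0% of genes in the higher and 16.1% in the lower direction. The counts depended on single libraries. Without arrested library 1, 2 or 3 in turn, 5167, 2030 and 2135 genes were called higher (20.9, 8.26 and 8.8% of those tested) and 1913, 806 and 857 lower (7.72, 3.28 and 3.53%). Without WT 1-cell library 1, 2 or 3 in turn, 1365, 984 and 943 genes were called higher (5.52, 3.98 and 3.84%) and 521, 388 and 432 lower (2.11, 1.57 and 1.76%). Leaving out arrested library 1, the one most like WT 1-cell embryos, thus raised both counts, and leaving out any WT 1-cell library lowered them. Arrested embryos were also set against cleaved embryos of the same time in culture: 2.2% of genes were called higher and 3.39% lower than in het 2-cell embryos, and 7.41% higher and 7.69% lower than in WT 2-cell embryos. Against the same WT 1-cell libraries, het 2-cell embryos had 27.3% of genes higher and 12.9% lower, and WT 2-cell embryos 28.8% higher and 15.6% lower. For each gene list below, counts of called members are given again without arrested libraries 1, 2 and 3 and without WT 1-cell libraries 1, 2 and 3, always in that order, and then in a fit of only the 6 libraries compared (only 6), which called 347 genes higher and 232 lower of 16065 tested. A gene named as called against WT 1-cell embryos kept that call in all 6 fits that leave out 1 library unless a loss is stated. Calls against 2-cell embryos were not repeated with single libraries left out.

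The labelled gene, Eif4enif1, lies on the plus strand of chromosome 11 at 3202392 to 3244588 (mm10, ENSMUSG00000020454.17). It measured 94.4, 26.03 and 50.5 CPM in the arrested libraries, against 119, 134 and 157 CPM in the WT 1-cell libraries. The groups did not overlap, and the log2 difference was -1.27 (SE 0.44), but the gene was not called (edgeR adjusted p = 0.0634). Of the 6 fits that leave out 1 library it was called in 1, the one without arrested library 1 (adjusted p = 0.00366). Levels were 49.8, 36.00 and 39.1 CPM in het 2-cell and 68.8, 51.7 and 69.1 CPM in WT 2-cell embryos, so WT embryos of the later stage were also below WT 1-cell embryos.

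**Figure D2:**
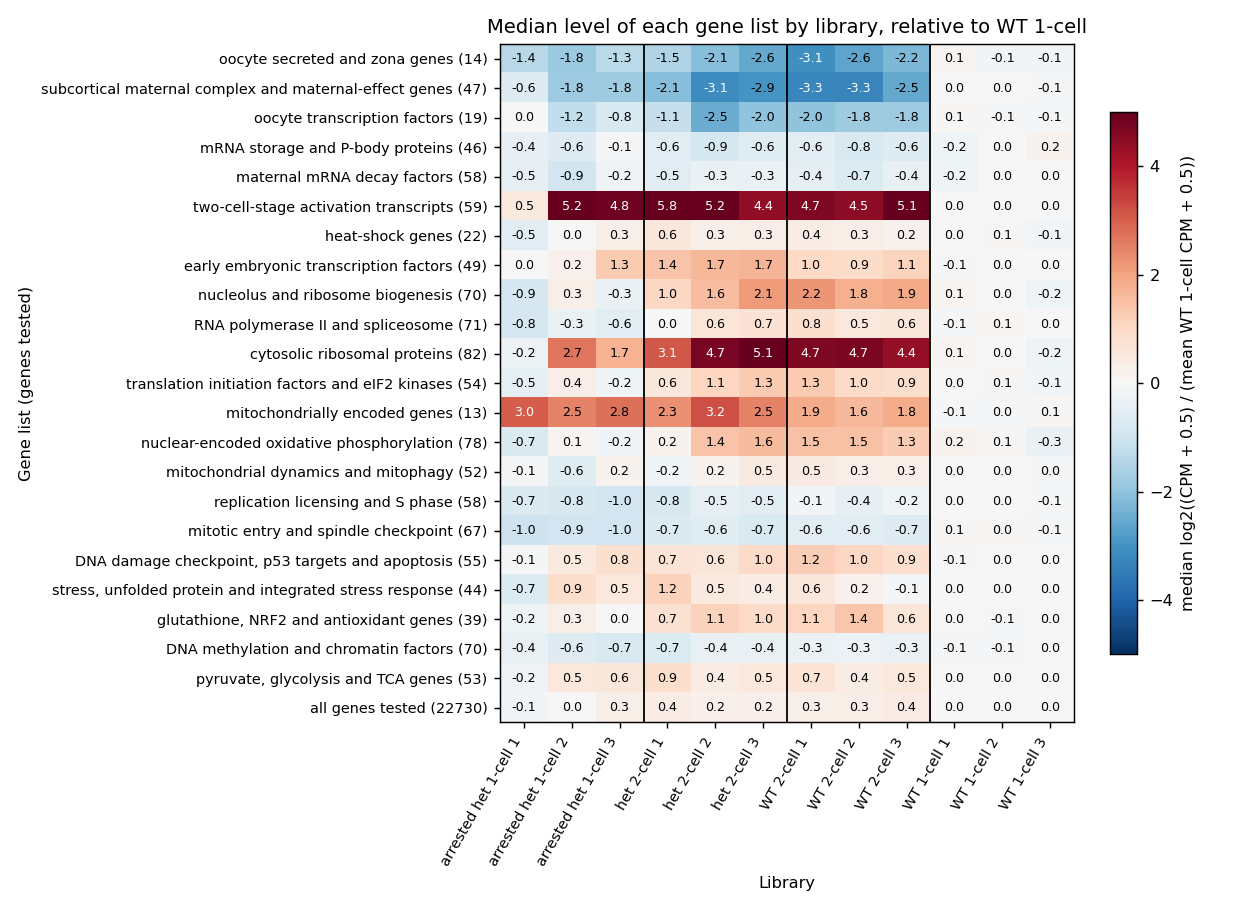
Median over the tested members of 22 gene lists (rows, number of genes in brackets) of log2((CPM + 0.5) / (mean WT 1-cell CPM + 0.5)) in each of 12 libraries (columns), with all genes tested in the last row. Mitochondrially encoded genes are high in all 3 arrested libraries, while two-cell-stage transcripts are at 0.49 in arrested library 1 and at 5.19 and 4.85 in arrested libraries 2 and 3.

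Transcripts that the oocyte makes for its own growth and coat were lower in arrested embryos. Of 14 oocyte secreted and zona genes, 0 rose and 6 fell, beside 12.6% and 4.71% of all genes, with a median log2 difference of -1.25. The median level of the list relative to WT 1-cell embryos was -1.39, -1.85 and -1.33 on the log2 scale in arrested libraries 1, 2 and 3, against 0.14, -0.12 and -0.14 in the WT 1-cell libraries, so all 3 arrested libraries lay below. Gdf9 (chromosome 11, 53431023 to 53437904, plus strand, mm10), an oocyte growth factor that acts on granulosa cells, measured 447, 359 and 516 CPM in arrested against 1681, 2283 and 3291 CPM in WT 1-cell libraries (log2 difference -2.46, SE 0.43, adjusted p = 0.00432, edgeR). Plat, tissue plasminogen activator, whose mRNA is stored in the oocyte, measured 24.2, 36.04 and 30.6 CPM in arrested against 218, 215 and 456 CPM in WT 1-cell libraries (log2 difference -3.29, SE 0.46, adjusted p = 0.00184, edgeR). The groups stood apart for both. Astl, the protease ovastacin that cleaves ZP2 after fertilisation, and Zp3, a zona pellucida protein, also fell, with log2 differences of -3.44 and -1.74. Leaving out single libraries, 9, 4 and 5 (arrested libraries), 4, 4 and 4 (WT 1-cell libraries) and 3 (only 6) of the zona and secreted genes were called lower. For WT 2-cell over WT 1-cell embryos, a comparison that shares the WT 1-cell libraries, the median of the list was -2.62. Set directly against het 2-cell embryos, 1 of the 14 genes was called higher in arrested embryos and none lower (2.2% and 3.39% of all genes), with a median of 0.49.

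Genes of the subcortical maternal complex and other maternal-effect genes are loaded into the egg and many are needed for the first cleavages. Of 47 tested, 2 rose and 15 fell, beside 12.6% and 4.71% of all genes, and the median log2 difference was -1.38. Arrested library 1 held more of these transcripts than the other two, with list medians of -0.63, -1.83 and -1.76 in arrested libraries 1, 2 and 3 relative to WT 1-cell embryos. Nlrp14, an oocyte NLR-family gene, measured 99.7, 43.5 and 134 CPM in arrested against 792, 835 and 709.7 CPM in WT 1-cell libraries (log2 difference -3.08, SE 0.49, adjusted p = 0.00281, edgeR). Oas1d and Oas1e, oocyte members of the oligoadenylate synthetase family, also fell, with log2 differences of -3.08 and -3.85. Padi6, a structural component of the egg's cytoplasmic lattices, measured 25.9, 25.9 and 18.5 CPM in arrested and 92.2, 88.7 and 99.2 CPM in WT 1-cell libraries (log2 difference -1.996, SE 0.34, adjusted p = 0.00391, edgeR). These 4 genes stood apart between the groups and kept their calls when any 1 of the 6 libraries was left out. Some abundant oocyte transcripts of uncertain function went the other way. Omt2a measured 23815, 12816 and 17287 CPM in arrested and 7042, 4862 and 5847 CPM in WT 1-cell libraries (log2 difference 1.603, SE 0.40, adjusted p = 0.0179, edgeR). The call was lost without WT 1-cell library 2 or 3 (adjusted p up to 0.0945). Omt2b, its close copy, measured 25638, 9693 and 16931 CPM in arrested and 8518, 5189 and 5893 CPM in WT 1-cell libraries. The call was lost without arrested library 1 or 3, or without WT 1-cell library 1, 2 or 3 (adjusted p up to 0.167). Reads of the Omt2, Oas1 and Nlrp families may be split between near-identical copies. Leaving out single libraries, 24, 13 and 14 (arrested libraries), 12, 12 and 13 (WT 1-cell libraries) and 5 (only 6) maternal-effect genes were called lower.

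Part of this list was higher in arrested than in cleaved het embryos. Set against het 2-cell embryos, 10 of 47 maternal-effect genes were called higher in arrested embryos and 1 lower (2.2% and 3.39% of all genes), with a median of 1.07. Oas1d measured 499, 235 and 145 CPM in arrested and 117, 76.9 and 54.3 CPM in het 2-cell libraries (log2 difference 1.83, adjusted p = 0.0464, edgeR). H1foo, the oocyte linker histone, chosen after its values were seen, measured 2294, 1563 and 273 CPM in arrested and 95.5, 48.3 and 31.8 CPM in het 2-cell libraries (log2 difference 4.56, adjusted p = 0.0219, edgeR), against 5329, 5550.5 and 6302 CPM in WT 1-cell libraries. Obox2, an oocyte homeobox gene of the list of transcription factors, measured 4484, 1963 and 682 CPM in arrested, 186, 96.6 and 66.2 CPM in het 2-cell and 13139, 8037 and 6585 CPM in WT 1-cell libraries (log2 difference 4.35, adjusted p = 0.0219 against het 2-cell, edgeR). Its arrested values span the gap between the other groups, with library 1 highest and library 3 lowest. Obox2 fell by 1.96 on the log2 scale against WT 1-cell embryos. The call was lost without arrested library 2 or 3, or without WT 1-cell library 1, 2 or 3 (adjusted p up to 0.143).

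Among 19 oocyte transcription factors, 4 rose and 3 fell, beside 12.6% and 4.71% of all genes, with a median of 0.0030 that changed sign between settings. Those that fell were Zfp57, which protects imprinted methylation, Sall4 and Obox2. Zfp57 measured 44.8, 31.8 and 35.8 CPM in arrested against 611, 322 and 168 CPM in WT 1-cell libraries (log2 difference -3.29, SE 0.46, adjusted p = 0.00184, edgeR), and Sall4 32.1, 12.1 and 53.1 CPM against 303, 272 and 361 CPM. The 4 that rose, Obox6, Crxos, Taf7l and Sohlh1, had 0 to 2 counts in all WT 1-cell libraries together. Obox6 and Crxos are homeobox genes. Obox6 measured 3.24, 185 and 116 CPM in arrested and 0.122, 0 and 0 CPM in WT 1-cell libraries, a ratio of 3263 with a 95% exact counting interval of 903 to 26951, with library 1 far below the other two. The call of Sohlh1 was lost without WT 1-cell library 1, 2 or 3 (adjusted p up to 0.0838). The call of Taf7l was lost without WT 1-cell library 3 (adjusted p up to 0.0504).

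The machinery that stores and removes maternal mRNA moved gene by gene. Of 46 storage and P-body genes, 2 rose and 5 fell, beside 12.6% and 4.71% of all genes (median -0.14), and of 58 decay factors, 1 rose and 9 fell, beside 12.6% and 4.71% of all genes (median -0.27). Pabpn1l encodes an oocyte poly(A)-binding protein that recruits the deadenylation adaptor BTG4. It measured 7.54, 11.7 and 5.97 CPM in arrested against 412, 239.7 and 283 CPM in WT 1-cell libraries (log2 difference -5.21, SE 0.72, adjusted p = 0.00181, edgeR). All 3 arrested libraries were far below the lowest WT 1-cell library. Zar1, a zygote-arrest protein that binds stored mRNA, fell to 139, 40.7 and 41.3 CPM in arrested libraries, against 398, 705 and 624 CPM in WT 1-cell libraries (adjusted p = 0.0135). Cpeb1, which directs cytoplasmic polyadenylation, measured 10.8, 6.86 and 12.9 CPM in arrested and 41.9, 51.05 and 48.1 CPM in WT 1-cell libraries (log2 difference -2.21, SE 0.45, adjusted p = 0.0088, edgeR). Upf1, the helicase of nonsense-mediated decay, and Dcp1a, a decapping subunit, fell as well, with log2 differences of -2.67 and -2.12. The call of Dcp1a was lost without WT 1-cell library 3 (adjusted p up to 0.057). Decay factors called lower without single libraries numbered 17, 5 and 4 (arrested libraries), 5, 3 and 2 (WT 1-cell libraries) and 1 (only 6), and storage genes 9, 2 and 5 (arrested libraries), 4, 2 and 2 (WT 1-cell libraries) and 1 (only 6).

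Transcripts of the 2-cell wave of genome activation rose strongly, but chiefly in arrested libraries 2 and 3. Of 59 two-cell-stage activation transcripts tested, 42 rose and 1 fell, beside 12.6% and 4.71% of all genes. Their median log2 difference was 6.56, or 6.08 with genes that had no WT 1-cell count set at their lower bound. The list median relative to WT 1-cell embryos was 0.49, 5.19 and 4.85 in arrested libraries 1, 2 and 3, against 5.84, 5.19 and 4.42 in het 2-cell, 4.67, 4.49 and 5.06 in WT 2-cell and 0.00, 0.00 and -0.03 in WT 1-cell libraries. Arrested library 1 was thus close to the WT 1-cell libraries, and libraries 2 and 3 lay within the range of the 2-cell libraries. With single libraries left out, 44, 40 and 39 (arrested libraries), 35, 33 and 33 (WT 1-cell libraries) and 21 (only 6) were called higher. Marker sums described at the end moved with the same libraries: blood cell markers summed to 6.404, 383 and 175 CPM in arrested and 0.366, 0.233 and 0.0456 CPM in WT 1-cell libraries, and their part in the rise was not tested.

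Zscan4 genes, a cluster on chromosome 7 that encodes SCAN and zinc-finger proteins, mark the 2-cell stage and are activated in mouse cells by the homeobox factor DUX. Stretches of 146 bases upstream of 3 of them are shown because the copies that moved together also share this sequence. They come from RefSeq on GRCm38.p6, run 5' to 3' towards the gene, and have 2 motifs in capitals. The first is a match, on the opposite strand, to a form of the DUX recognition motif, TGATT followed by any 2 bases and ATCA. The second is the TATA box TATAAA.
Zscan4c (chr7:11005571-11005716, plus strand): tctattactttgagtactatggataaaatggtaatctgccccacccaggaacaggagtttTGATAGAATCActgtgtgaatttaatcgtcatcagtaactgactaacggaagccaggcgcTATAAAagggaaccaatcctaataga
Zscan4d (chr7:11166188-11166333, minus strand): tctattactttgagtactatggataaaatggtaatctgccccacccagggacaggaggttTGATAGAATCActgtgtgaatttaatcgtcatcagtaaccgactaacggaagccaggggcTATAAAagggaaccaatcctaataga
Zscan4f (chr7:11397764-11397909, plus strand): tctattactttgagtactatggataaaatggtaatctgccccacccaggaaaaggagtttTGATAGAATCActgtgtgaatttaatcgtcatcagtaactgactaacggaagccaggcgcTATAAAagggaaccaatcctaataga
The stretches differ at 1 position between Zscan4c and Zscan4f, at 4 between Zscan4c and Zscan4d and at 5 between Zscan4d and Zscan4f, and 49 bases separate the motifs in each. Both strands of the 250 bases before each RefSeq gene start were searched. The DUX motif was present for 0.207% of 27025 genes and for 4 of the 33 of 60 list members found in that table, Zscan4b, Zscan4c, Zscan4d and Zscan4f. TATAAA was present for 14.3% of all genes and 10 of the 33. The motifs were chosen with the expression values known, and a match is a description of sequence only.

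Zscan4f measured 7.86, 1319 and 732 CPM in the arrested libraries, against 9.63, 6.88 and 3.15 CPM in the WT 1-cell libraries (log2 difference 6.71, SE 1.404, adjusted p = 0.00939, edgeR). Library 1 fell inside the WT 1-cell range, and libraries 2 and 3 were far above it. Het 2-cell libraries had 1008, 380.3 and 157 CPM, and WT 2-cell libraries 186, 164 and 455 CPM. Zscan4c measured 3.81, 845 and 472 CPM in arrested against 6.88, 4.72 and 2.42 CPM in WT 1-cell libraries (log2 difference 6.56, SE 1.43, adjusted p = 0.0109, edgeR), with the same order of libraries. Zscan4d measured 3.97, 459.9 and 189.5 CPM in arrested against 4.75, 1.92 and 2.097 CPM in WT 1-cell libraries. All 6 Zscan4 genes tested, a to f, rose. The call of Zscan4c was lost without WT 1-cell library 2 or 3 (adjusted p up to 0.0542). The call of Zscan4b was lost without WT 1-cell library 1, 2 or 3 (adjusted p up to 0.0693). Their near-identical copies may share reads, so they are not 6 independent observations. Duxf3, the gene that encodes DUX, was not called (0.567, 4.37 and 5.91 CPM in arrested against 0.426, 0.175 and 0.684 CPM in WT 1-cell libraries, edgeR adjusted p = 0.0686).

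Zfp352, a retrotransposed zinc-finger gene of the 2-cell stage on chromosome 4, had no count in any WT 1-cell library. The 250 bases before its start are shown because they repeat 1 short motif, TAATCC in capitals, the core recognised by homeobox factors of the OTX type.
Zfp352 (chr4:90218570-90218819, plus strand, RefSeq, GRCm38.p6): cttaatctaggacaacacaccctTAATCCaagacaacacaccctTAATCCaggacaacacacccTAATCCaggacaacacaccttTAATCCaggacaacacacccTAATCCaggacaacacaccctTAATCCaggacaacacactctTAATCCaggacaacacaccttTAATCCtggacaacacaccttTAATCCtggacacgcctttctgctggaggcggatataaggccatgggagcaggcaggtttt
TAATCC on either strand was present before the start of 7.21% of all genes in the table and of 8 of the 33 list members. Zfp352 measured 4.13, 81.7 and 148 CPM in arrested, 245, 182 and 78.2 CPM in het 2-cell and 91.1, 102 and 119.7 CPM in WT 2-cell libraries. With counts pooled over the 3 libraries of each group and divided by their pooled size, as for all bounds and counting ratios here, its arrested level was at least 1552-fold above a floor of 3 counts over the WT 1-cell group (edgeR adjusted p = 0.00184). Even arrested library 1, the lowest, was above 0. Its value there was below that of every 2-cell library.

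Several of these transcripts were also raised in arrested library 1. Gm5662, a predicted gene, measured 34.2, 682 and 336 CPM in arrested against 0.0609, 0 and 0 CPM in WT 1-cell libraries (edgeR adjusted p = 0.000682). With 1 count in the WT 1-cell group, the contrast is a ratio of 22718 with a 95% exact counting interval of 4077 to 897340.0. Gm2016, a close relative, measured 19.8, 439 and 234 CPM in arrested against 0.0609, 0 and 0 CPM in WT 1-cell libraries. Gm8300 measured 19.1, 76.02 and 76.4 CPM in arrested and 0, 0.117 and 0 CPM in WT 1-cell libraries, a ratio of 1722 with a 95% exact counting interval of 476 to 14221. In each of these, library 1 was above every WT 1-cell library and below arrested libraries 2 and 3. Usp17lc, a deubiquitinase-family gene, behaved in the same way, at 10.5, 58.5 and 48.7 CPM in arrested and 0.426, 0 and 0 CPM in WT 1-cell libraries (log2 difference 8.15, SE 1.22, adjusted p = 0.00221, edgeR). BC061212, a PRAME-family gene, was unusual in that library 1 was its highest arrested value (21.5, 3.57 and 20.5 CPM in arrested against 0.0609, 0 and 0.137 CPM in WT 1-cell libraries, log2 difference 7.67, SE 2.07, adjusted p = 0.0249, edgeR). The call was lost without WT 1-cell library 1, 2 or 3 (adjusted p up to 0.0996).

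Not all members moved in that direction. Trim75, the list's only member that fell, measured 255, 123 and 112 CPM in arrested against 464, 498 and 565 CPM in WT 1-cell libraries (log2 difference -1.64, SE 0.46, adjusted p = 0.0296, edgeR). The call was lost without arrested library 2 or 3, or without WT 1-cell library 1, 2 or 3 (adjusted p up to 0.0975). Tcstv1, a 2-cell transcript already present in zygotes, measured 256, 37.8 and 106 CPM in arrested and 179, 192 and 179 CPM in WT 1-cell libraries and was not called (adjusted p = 0.629, edgeR). Library 1 was its highest arrested value and library 2 its lowest, on either side of the WT 1-cell range. Cphx1, Cphx2 and Cphx3, a set of homeobox copies, were not called either, at log2 differences of -1.11, -1.13 and -1.11. Dppa2, an inducer of the 2-cell programme, was not called (39.96, 186 and 78.3 CPM in arrested, 103, 43.3 and 34.1 CPM in WT 1-cell), while its partner Dppa4 rose (2.43, 146 and 53.1 CPM in arrested, 1.58, 0.874 and 1.504 CPM in WT 1-cell, adjusted p = 0.00621, edgeR).

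Against het 2-cell embryos, which share the genotype label and the time in culture, 1 of the 59 activation transcripts was called higher in arrested embryos and 3 lower, close to the 2.2% and 3.39% of all genes, and the median was -1.11. The 3 lower were Tdpoz3, Duxbl1 and Sp110. Duxbl1, a double-homeobox gene, measured 24.97, 33.03 and 54.1 CPM in arrested and 159, 202 and 279 CPM in het 2-cell libraries (log2 difference -2.51, adjusted p = 0.0317, edgeR), against 8.65, 1.63 and 2.097 CPM in WT 1-cell libraries. Its 3 arrested values lay between those of the other groups without overlap. With arrested values spread over so wide a range for many members, a difference from 2-cell embryos that was not called does not show equal levels.

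**Figure D3:**
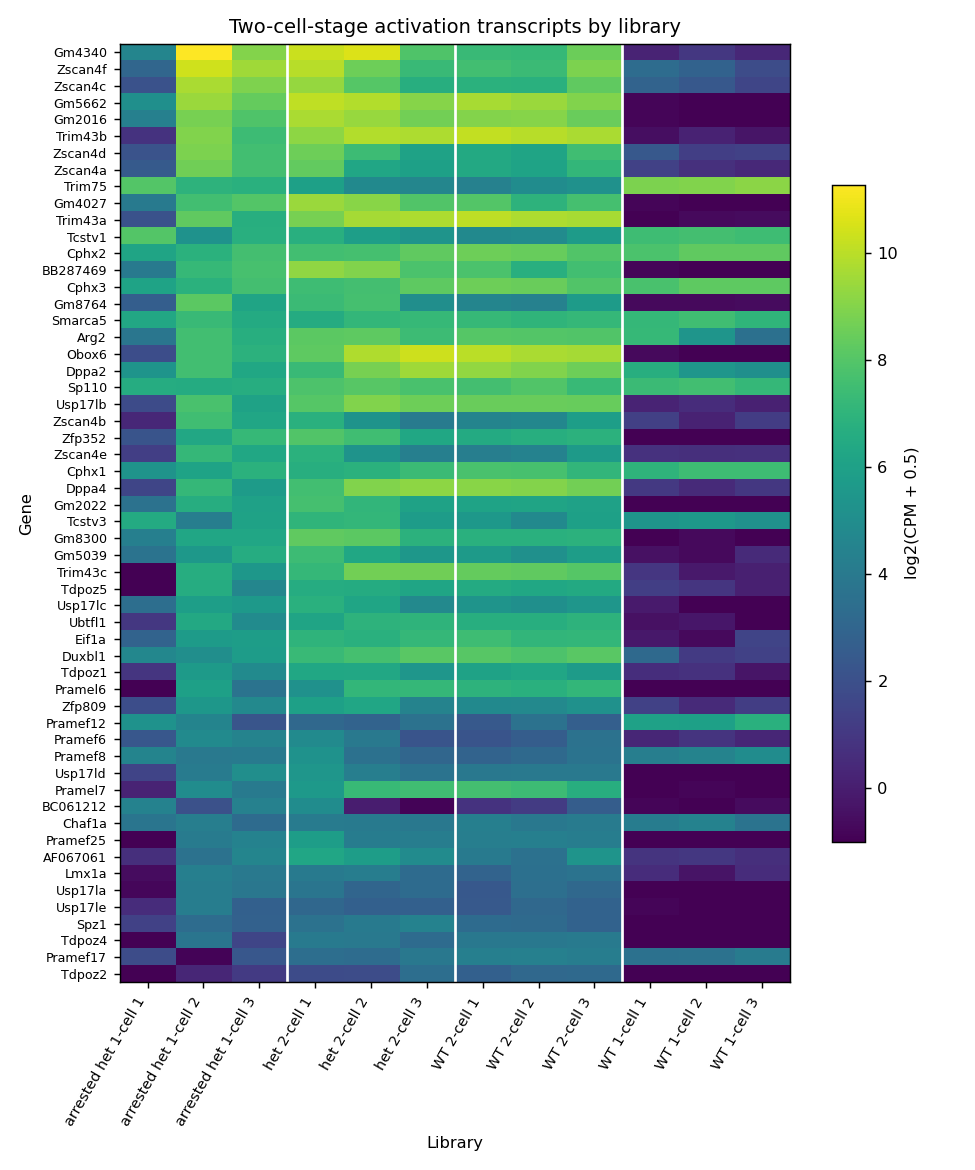
Levels of the 56 two-cell-stage activation transcripts with at least 10 CPM in any library (rows, ordered by mean arrested level), as log2(CPM + 0.5), in the 12 libraries (columns). Arrested library 1 resembles the WT 1-cell columns for most rows, with Gm5662 at 34.2 CPM among the exceptions, while arrested libraries 2 and 3 resemble the 2-cell columns.

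The 12 highest log2 differences among genes with at least 10 CPM on average, groups that do not overlap and an established symbol all belonged to genes with no count in any WT 1-cell library. They were Tomm5, a small subunit of the mitochondrial import complex, Zfp352, Prdx4, a peroxiredoxin of the endoplasmic reticulum, Crxos, Obox8, Bambi, a decoy receptor of TGF-beta signalling, Gal, a neuropeptide gene, Rfpl4b, Guca1a, Cst6, Nup62cl and Tnfaip6. Tomm5 (chromosome 4, 45105208 to 45108114, minus strand, mm10) measured 2.43, 182 and 59.9 CPM in arrested, 183, 423 and 842 CPM in het 2-cell and 718, 682 and 481 CPM in WT 2-cell libraries. Its pooled arrested level was at least 1815-fold above the WT 1-cell floor (edgeR adjusted p = 0.00293). Crxos measured 1.22, 144 and 63.3 CPM in arrested, 206, 701 and 916 CPM in het 2-cell and 928, 799.6 and 651 CPM in WT 2-cell libraries, at least 1522-fold above that floor. Bambi measured 5.67, 79.8 and 34.9 CPM in arrested and 84.9, 15.2 and 25.3 CPM in het 2-cell libraries, and Gal 2.999, 69.4 and 45.4 CPM in arrested and 58.7, 25.8 and 14.4 CPM in het 2-cell libraries, so their ranges overlapped. For all 12, arrested library 1 was the lowest of the 3, between 0.567 and 6.81 CPM. The bounds ran between at least 596-fold for Tnfaip6 and at least 1815-fold for Tomm5. None of the 12 was called different from het 2-cell embryos.

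Of 49 early embryonic transcription factors, 13 rose and 2 fell (median 1.64), beside 12.6% and 4.71% of all genes. The list median relative to WT 1-cell embryos was 0.0065, 0.20 and 1.32 in arrested libraries 1, 2 and 3. It was -0.05, -0.03 and 0.00 in the WT 1-cell libraries, so arrested library 3 stood farthest above them. Gabpa, an ETS-family activator, measured 13.8, 165 and 90.03 CPM in arrested against 0.914, 0.583 and 0.501 CPM in WT 1-cell libraries (log2 difference 7.07, SE 0.83, adjusted p = 0.00116, edgeR), and here library 1 was also above every WT 1-cell library. Id2, an inhibitor of basic helix-loop-helix factors, measured 33.2, 143 and 195 CPM in arrested and 2.99, 3.26 and 0.274 CPM in WT 1-cell libraries (log2 difference 5.84, SE 0.94, adjusted p = 0.00307, edgeR). Zfp42, the pluripotency marker Rex1, rose to 5.03, 49.2 and 13.2 CPM in arrested libraries, against 0.183, 0.583 and 0.365 CPM in WT 1-cell libraries (adjusted p = 0.00303, edgeR). The 2 that fell, Nfya and Nfyc, are subunits of the CCAAT-box factor NF-Y. Nfya measured 4.78, 13.7 and 8.96 CPM in arrested and 39.7, 29.6 and 19.97 CPM in WT 1-cell libraries. Its call was lost without arrested library 3, or without WT 1-cell library 1 or 2 (adjusted p up to 0.101). The call of Nfyc was lost without arrested library 3, or without WT 1-cell library 1, 2 or 3 (adjusted p up to 0.102). With single libraries left out, 20, 12 and 11 (arrested libraries), 9, 7 and 7 (WT 1-cell libraries) and 5 (only 6) of these factors were called higher.

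Mitochondrially encoded mRNAs were high in all 3 arrested libraries. These 13 genes encode core subunits of the respiratory chain and ATP synthase and are transcribed inside the organelle. All 13 rose, beside 12.6% of all genes. Their log2 differences lay between 1.95 (mt-Nd6) and 3.58 (mt-Co2), with adjusted p between 0.00124 and 0.00729 by edgeR. The groups stood apart for all 13, as they did in the higher direction for 11.0% of all genes. Genes of the mitochondrial chromosome took 15.7, 16.2 and 17.3% of counts in arrested and 2.58, 2.39 and 2.35% in WT 1-cell libraries, or 16.4% ± 0.816 and 2.44% ± 0.122 (SD, n = 3 each). A two-sided exact permutation test on those shares gave p = 0.1, the smallest that 3 against 3 libraries allow. mt-Co2, cytochrome oxidase subunit 2, measured 6185, 9209 and 6972 CPM in arrested against 547, 701 and 623 CPM in WT 1-cell libraries (log2 difference 3.58, SE 0.43, adjusted p = 0.00124, edgeR). mt-Nd1, a complex I subunit, measured 8919, 8091 and 8956 CPM in arrested and 1005, 1073 and 1178 CPM in WT 1-cell libraries. Arrested library 1, whose correlations were highest with the WT 1-cell libraries, was here several-fold above each of them.

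The list median relative to WT 1-cell embryos was 3.04, 2.49 and 2.75 in arrested, 2.27, 3.21 and 2.49 in het 2-cell and 1.85, 1.63 and 1.85 in WT 2-cell libraries. No mitochondrially encoded gene was called between arrested and het 2-cell embryos (median 0.09), and the largest unsigned log2 difference there was 0.43. All 13 stayed called higher than in WT 1-cell embryos when any 1 of the 6 libraries was left out, and 9 were with the het 1-cell libraries added to the model. RNA was selected by its poly(A) tail, and reads of nuclear copies of mitochondrial genes may be counted with these genes.

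**Figure D4:**
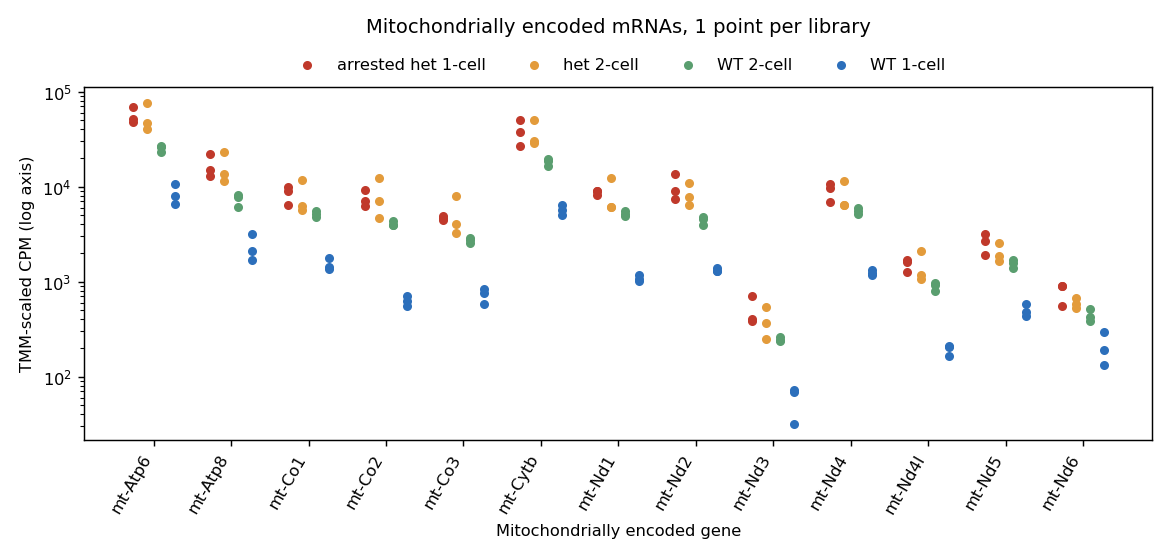
TMM-scaled CPM (vertical, log axis) of the 13 mitochondrially encoded genes (horizontal), 1 point per library, in arrested het 1-cell, het 2-cell, WT 2-cell and WT 1-cell embryos. For every gene the 3 arrested points lie above the 3 WT 1-cell points.

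Nuclear genes for the same respiratory complexes did not move as a group. Of 78, 6 rose and 6 fell, beside 12.6% and 4.71% of all genes, with list medians of -0.71, 0.13 and -0.15 in arrested libraries 1, 2 and 3. Cox7b, a cytochrome oxidase subunit, measured 23.5, 102 and 52.2 CPM in arrested against 9.02, 6.53 and 5.01 CPM in WT 1-cell libraries (log2 difference 3.12, SE 0.51, adjusted p = 0.00331, edgeR). Uqcrc2, a core protein of complex III, measured 59.2, 29.1 and 12.2 CPM in arrested against 268, 311 and 243 CPM in WT 1-cell libraries (log2 difference -3.03, SE 0.51, adjusted p = 0.00367, edgeR). Cox5a fell by 2.29 and Cyc1, cytochrome c1, rose by 2.88 on the log2 scale. The call of Cyc1 was lost without WT 1-cell library 1, 2 or 3 (adjusted p up to 0.0798). In WT 2-cell embryos the list median relative to WT 1-cell embryos was 1.45, 1.46 and 1.28. Set against het 2-cell embryos, 11 of the 78 were called lower in arrested embryos and none higher, beside 3.39% and 2.2% of all genes. Cox5a is one of them, at 77.01, 71.1 and 77.7 CPM in arrested and 111, 319.8 and 349 CPM in het 2-cell libraries (log2 difference -1.79, adjusted p = 0.0372, edgeR). Nuclear subunits called higher than in WT 1-cell embryos without single libraries numbered 17, 3 and 3 (arrested libraries), 1, 1 and 1 (WT 1-cell libraries) and 1 (only 6), and those called lower 10, 7 and 6 (arrested libraries), 5, 2 and 4 (WT 1-cell libraries) and 2 (only 6).

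Of 52 genes of mitochondrial shape, movement and turnover, 7 rose and 6 fell, beside 12.6% and 4.71% of all genes. Gabarap, an autophagosome protein, measured 3.32, 78.6 and 35.03 CPM in arrested and 1.16, 1.05 and 0.547 CPM in WT 1-cell libraries (log2 difference 5.41, SE 0.92, adjusted p = 0.00368, edgeR). Tfam, which packages and transcribes mitochondrial DNA, measured 8.59, 25.8 and 23.3 CPM in arrested and 1.58, 4.25 and 2.01 CPM in WT 1-cell libraries (log2 difference 2.88, SE 0.57, adjusted p = 0.00747, edgeR). Trak2, an adaptor of mitochondrial transport, rose by 3.27 on the log2 scale. These 3 kept their calls in all 6 fits that leave out a library, and all 3 arrested libraries were above the WT 1-cell range. Spire1 and Rhot1, which act on actin-based division and on transport, fell, with log2 differences of -1.69 and -1.49. The call of Spire1 was lost without arrested library 2 or 3, or without WT 1-cell library 2 or 3 (adjusted p up to 0.0859). The call of Rhot1 was lost without arrested library 2, or without WT 1-cell library 2 or 3 (adjusted p up to 0.123). Leaving out single libraries gave 10, 5 and 5 (arrested libraries), 4, 4 and 3 (WT 1-cell libraries) and 1 (only 6) members called higher, and 6, 1 and 3 (arrested libraries), 2, 0 and 0 (WT 1-cell libraries) and 0 (only 6) lower.

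Ribosomal protein mRNAs showed a partial rise. Of 82 cytosolic ribosomal protein genes, 35 rose and 2 fell, beside 12.6% and 4.71% of all genes (median 1.997). List medians relative to WT 1-cell embryos were -0.24, 2.69 and 1.75 in arrested libraries 1, 2 and 3, against 3.12, 4.75 and 5.13 in het 2-cell, 4.67, 4.71 and 4.38 in WT 2-cell and 0.09, 0.03 and -0.20 in WT 1-cell libraries. Library 1 did not stand above the WT 1-cell libraries, and libraries 2 and 3 were below every 2-cell library. Rpsa measured 5.51, 17.7 and 13.6 CPM in arrested, 39.3, 117 and 111 CPM in het 2-cell and 0.183, 0.583 and 0.41 CPM in WT 1-cell libraries (log2 difference 4.95, SE 0.65, adjusted p = 0.00148 against WT 1-cell, edgeR). Rps19 measured 3.16, 105 and 39.1 CPM in arrested, 116, 359 and 545 CPM in het 2-cell and 0.914, 0.583 and 0.456 CPM in WT 1-cell libraries. Set against het 2-cell embryos, 33 of the 82 were called lower in arrested embryos and none higher, beside 3.39% and 2.2% of all genes, with a median of -2.599. Without single libraries, 55, 18 and 24 (arrested libraries), 13, 12 and 9 (WT 1-cell libraries) and 4 (only 6) ribosomal protein genes were called higher than in WT 1-cell embryos. Processed pseudogenes of these genes may share their reads.

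Genes of the nucleolus and of ribosome assembly split in both directions, with 11 of 70 higher and 12 lower, beside 12.6% and 4.71% of all genes. Rrp9, a U3 snoRNA-binding protein, measured 2.999, 16.4 and 10.95 CPM in arrested against 0.0609, 0.0583 and 0 CPM in WT 1-cell libraries (edgeR adjusted p = 0.000882), a ratio of 314 with a 95% exact counting interval of 86.7 to 2603. Ncl, nucleolin, measured 73.1, 57.4 and 31.2 CPM in arrested and 311, 338 and 200.1 CPM in WT 1-cell libraries (log2 difference -2.39, SE 0.43, adjusted p = 0.0044, edgeR). Bms1, a GTPase of small-subunit assembly, measured 7.05, 5.45 and 4.23 CPM in arrested and 58.4, 44.8 and 44.9 CPM in WT 1-cell libraries (log2 difference -3.15, SE 0.47, adjusted p = 0.00221, edgeR). The groups did not overlap for any of these genes. The list median in arrested libraries was -0.86, 0.29 and -0.34, against 1.05, 1.56 and 2.14 in het 2-cell and 2.20, 1.76 and 1.89 in WT 2-cell libraries. Against het 2-cell embryos 15 of the 70 were called lower and none higher, beside 3.39% and 2.2% of all genes. Without single libraries, 19, 7 and 9 (arrested libraries), 6, 4 and 5 (WT 1-cell libraries) and 2 (only 6) were called higher than in WT 1-cell embryos, and 15, 12 and 9 (arrested libraries), 7, 7 and 7 (WT 1-cell libraries) and 4 (only 6) lower.

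RNA polymerase II and spliceosome genes leaned lower, with 12 of 71 lower and 4 higher, beside 4.71% and 12.6% of all genes (median -0.38). Prpf6, a component of the U4/U6-U5 particle, measured 11.5, 11.4 and 7.22 CPM in arrested against 54.4, 59.1 and 70.8 CPM in WT 1-cell libraries (log2 difference -2.61, SE 0.48, adjusted p = 0.0053, edgeR). Sf3a3, of the U2 particle, measured 5.59, 12.6 and 17.1 CPM in arrested, 26.3, 78.5 and 72.3 CPM in het 2-cell and 85.8, 64.7 and 47.3 CPM in WT 1-cell libraries, and was called lower than both. Against het 2-cell embryos 15 of the list were called lower in arrested embryos and 1 higher, beside 3.39% and 2.2% of all genes. Those called lower than in WT 1-cell embryos without single libraries numbered 20, 12 and 8 (arrested libraries), 6, 3 and 3 (WT 1-cell libraries) and 1 (only 6). Of 54 translation initiation factors and eIF2 kinases, 7 rose and 4 fell, beside 12.6% and 4.71% of all genes. Eif1a, a multicopy 2-cell-stage relative of eIF1A, measured 7.05, 52.5 and 55.8 CPM in arrested and 0.366, 0.117 and 2.37 CPM in WT 1-cell libraries (log2 difference 5.2995, SE 0.98, adjusted p = 0.00534, edgeR). Eif2ak1, the haem-regulated eIF2 kinase, measured 21.6, 42.8 and 29.9 CPM in arrested, 95.8, 157 and 177 CPM in het 2-cell and 74.7, 85.3 and 87.1 CPM in WT 1-cell libraries, and its arrested values were below both other groups. The call against WT 1-cell embryos was lost without arrested library 3, or without WT 1-cell library 1, 2 or 3 (adjusted p up to 0.0856). Initiation genes called higher without single libraries numbered 16, 4 and 7 (arrested libraries), 6, 3 and 2 (WT 1-cell libraries) and 0 (only 6), and lower 10, 3 and 1 (arrested libraries), 1, 0 and 1 (WT 1-cell libraries) and 0 (only 6).

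Genes of mitotic entry and the spindle checkpoint fell more often than they rose. Of 67 tested, 2 rose and 15 fell, beside 12.6% and 4.71% of all genes (median -0.70), and list medians relative to WT 1-cell embryos were -1.02, -0.95 and -0.97 in arrested libraries 1, 2 and 3. Bub1b, the checkpoint kinase BUBR1 (chromosome 2, 118598211 to 118641591, plus strand, mm10), measured 10.9, 0.517 and 6.72 CPM in arrested against 167, 236 and 350.2 CPM in WT 1-cell libraries (log2 difference -5.38, SE 0.85, adjusted p = 0.00281, edgeR). Mos, the kinase that holds the egg at metaphase II, measured 4.22, 0.893 and 7.72 CPM in arrested against 59.5, 126 and 211 CPM in WT 1-cell libraries (log2 difference -4.96, SE 0.77, adjusted p = 0.00272, edgeR). Aurkc, the germline Aurora kinase, measured 69.8, 90.4 and 60.2 CPM in arrested against 701, 602 and 781 CPM in WT 1-cell libraries (log2 difference -3.24, SE 0.36, adjusted p = 0.000831, edgeR). For each of these the highest arrested library was well below the lowest WT 1-cell library. Cdc25c, the phosphatase that activates cyclin B-Cdk1, rose (2.03, 55.96 and 19.5 CPM in arrested, 1.71, 1.28 and 0.0912 CPM in WT 1-cell, log2 difference 4.67, SE 1.07, adjusted p = 0.013, edgeR), with library 1 just above the WT 1-cell range. The call was lost without WT 1-cell library 2 (adjusted p up to 0.0546). Without single libraries, 25, 16 and 12 (arrested libraries), 9, 8 and 11 (WT 1-cell libraries) and 4 (only 6) mitotic genes were called lower.

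The same genes were low in embryos that had cleaved. Bub1b measured 10.5, 8.64 and 5.43 CPM in het 2-cell and 7.07, 9.83 and 8.02 CPM in WT 2-cell libraries, Mos 2.23, 1.86 and 2.21 CPM and 0.851, 1.77 and 1.77 CPM, and Aurkc 58.2, 41.5 and 68.1 CPM and 66.3, 65.7 and 58.99 CPM. Neither Bub1b, Mos nor Aurkc was called between arrested and het 2-cell embryos (edgeR adjusted p = 0.756, 0.371 and 0.492). Over the whole list 5 genes were called higher and 5 lower in arrested than in het 2-cell embryos, beside 2.2% and 3.39% of all genes, with a median of 0.01.

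Of 58 genes of replication licensing and S phase, 3 rose and 10 fell, beside 12.6% and 4.71% of all genes (median -0.66). Prim2, the large primase subunit, measured 10.3, 12.1 and 8.59 CPM in arrested against 111, 140.0 and 143 CPM in WT 1-cell libraries (log2 difference -3.67, SE 0.40, adjusted p = 0.000831, edgeR). Mcm4, of the replicative helicase, measured 21.8, 4.18 and 17.4 CPM in arrested and 88.2, 119 and 162 CPM in WT 1-cell libraries (log2 difference -3.095, SE 0.62, adjusted p = 0.00787, edgeR). Orc4, of the origin recognition complex, fell by 2.11 on the log2 scale. Ccne1, cyclin E1, went up, at 38.3, 250.2 and 139 CPM in arrested against 12.98, 12.9 and 15.9 CPM in WT 1-cell libraries (log2 difference 3.35, SE 0.57, adjusted p = 0.00372, edgeR), and measured 284, 354 and 413 CPM in het 2-cell libraries. The groups did not overlap for any of these 4. Replication genes called lower without single libraries numbered 20, 8 and 5 (arrested libraries), 5, 3 and 4 (WT 1-cell libraries) and 1 (only 6).

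Genes of the DNA damage checkpoint, p53 targets and apoptosis rose in 16 of 55 cases and fell in 2, beside 12.6% and 4.71% of all genes (median 0.92). Cdkn1a, the p53 target p21, measured 2.76, 55.1 and 59.9 CPM in arrested against 2.74, 1.75 and 1.19 CPM in WT 1-cell libraries (log2 difference 4.38, SE 0.85, adjusted p = 0.00676, edgeR). Library 1 was at the top edge of the WT 1-cell range, and libraries 2 and 3 were far above it. Levels were higher still at the 2-cell stage, with 82.3, 135 and 114 CPM for het embryos and 124, 120.2 and 109 CPM for WT embryos, although arrested and het 2-cell embryos were not called different (adjusted p = 0.232, edgeR). Mcl1, an anti-apoptotic BCL2 relative, measured 8.92, 22.04 and 12.7 CPM in arrested and 0.609, 1.34 and 2.69 CPM in WT 1-cell libraries (log2 difference 3.22, SE 0.58, adjusted p = 0.00453, edgeR). Atm, the kinase that signals double-strand breaks, measured 3.89, 48.7 and 32.2 CPM in arrested and 1.28, 2.68 and 1.14 CPM in WT 1-cell libraries (log2 difference 4.06, SE 0.75, adjusted p = 0.00521, edgeR). Gadd45g, a growth-arrest gene, measured 4.05, 73.95 and 29.99 CPM in arrested, 15.1, 9.98 and 14.5 CPM in het 2-cell and 0.366, 0 and 0 CPM in WT 1-cell libraries (log2 difference 8.23, SE 1.41, adjusted p = 0.00377 against WT 1-cell, edgeR). Against het 2-cell embryos 4 genes of the list were called higher in arrested embryos and none lower, beside 2.2% and 3.39% of all genes. Checkpoint and p53 genes called higher than in WT 1-cell embryos without single libraries numbered 21, 10 and 14 (arrested libraries), 9, 7 and 7 (WT 1-cell libraries) and 1 (only 6).

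**Figure D5:**
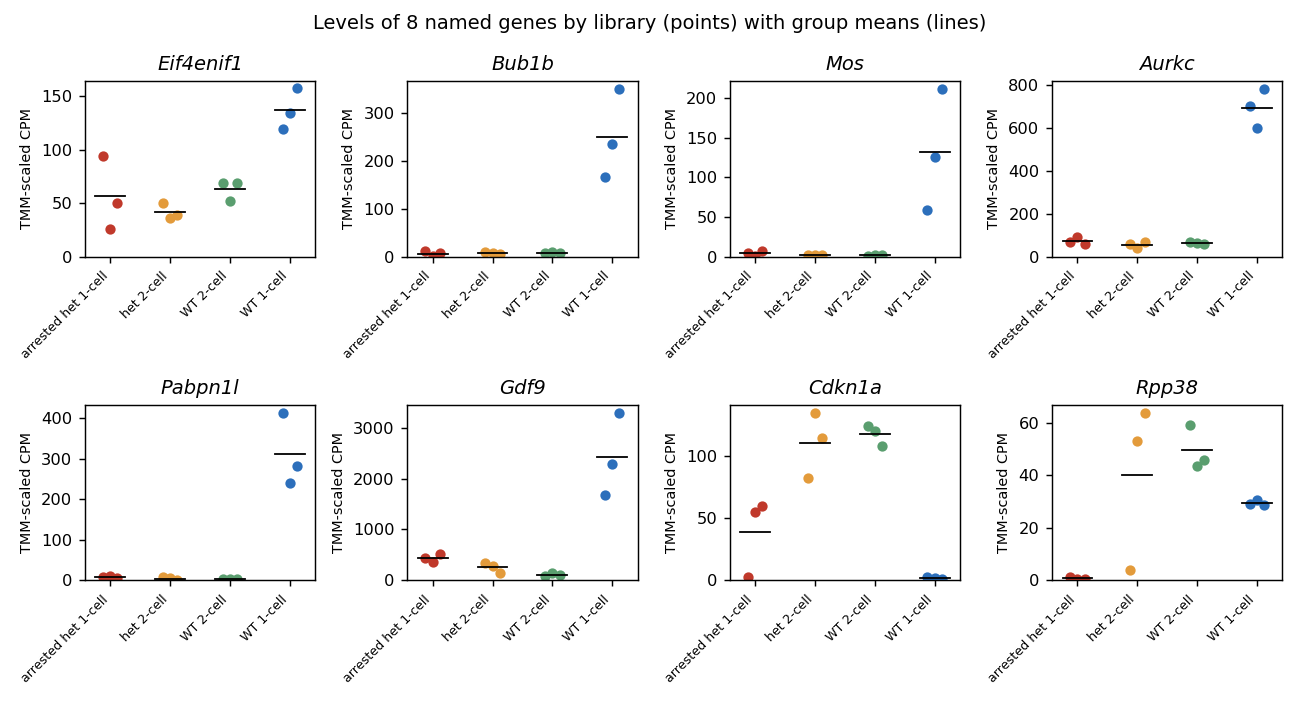
TMM-scaled CPM (vertical, linear axis starting at 0) of 8 genes in arrested het 1-cell, het 2-cell, WT 2-cell and WT 1-cell embryos (horizontal), 1 point per library with the group mean as a line. Bub1b, Mos, Aurkc, Pabpn1l and Gdf9 are low in all groups cultured for 24 h, Cdkn1a is low in arrested library 1 and WT 1-cell libraries, and Rpp38 is lowest in the arrested libraries.

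The 12 lowest log2 differences included those of Sbk3, Hist1h2aa, Tmem50a, Rpp38, Bub1b, Pabpn1l, Mos, Efhc2, Dnttip2, Dipk1b and Txnip. Tmem50a, a small membrane protein gene, measured 7.21, 0.376 and 5.79 CPM in arrested against 185, 209 and 224 CPM in WT 1-cell libraries (log2 difference -5.54, SE 0.92, adjusted p = 0.00342, edgeR). Dnttip2, a nucleolar protein, measured 14.2, 36.5 and 20.3 CPM in arrested against 578, 559.6 and 472 CPM in WT 1-cell libraries (log2 difference -4.503, SE 0.50, adjusted p = 0.000831, edgeR). Txnip, an inhibitor of thioredoxin and glucose uptake, measured 8.03, 0.987 and 10.3 CPM in arrested against 124, 105 and 155 CPM in WT 1-cell libraries (log2 difference -4.31, SE 0.71, adjusted p = 0.00328, edgeR). All 3 arrested values of these genes, library 1 included, lay below every WT 1-cell value. Rpp38, a subunit of the tRNA-processing enzyme RNase P (chromosome 2, 3328949 to 3332643, minus strand, mm10), differed from the rest in its 2-cell values, at 1.13, 0.329 and 0.684 CPM in arrested, 3.88, 53.2 and 63.7 CPM in het 2-cell, 59.2, 43.5 and 45.99 CPM in WT 2-cell and 29.2, 30.7 and 28.6 CPM in WT 1-cell libraries. It was called lower in arrested than in WT 1-cell (log2 difference -5.39, SE 0.89, adjusted p = 0.00331) and than in het 2-cell embryos (log2 difference -5.83, adjusted p = 0.0219, edgeR), with het 2-cell library 1 near the arrested values. The call of Sbk3 was lost without arrested library 2, or without WT 1-cell library 1, 2 or 3 (adjusted p up to 0.0882). The call of Efhc2 was lost without arrested library 3, or without WT 1-cell library 1, 2 or 3 (adjusted p up to 0.103). The call of Dipk1b was lost without arrested library 3, or without WT 1-cell library 2 or 3 (adjusted p up to 0.0712).

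Chaperones and stress genes moved gene by gene. Of 44 genes of the unfolded protein and integrated stress responses, 5 rose and 5 fell, beside 12.6% and 4.71% of all genes, and of 22 heat-shock genes, 2 rose and 3 fell, beside 12.6% and 4.71% of all genes. Hsp90aa1, the inducible cytosolic HSP90, measured 678, 390.4 and 365 CPM in arrested against 4489.6, 3540.4 and 3432 CPM in WT 1-cell libraries (log2 difference -2.9999, SE 0.42, adjusted p = 0.00184, edgeR). Hsp90b1, its counterpart in the endoplasmic reticulum, measured 18.6, 17.2 and 23.1 CPM in arrested and 136, 140.4 and 113 CPM in WT 1-cell libraries (log2 difference -2.72, SE 0.40, adjusted p = 0.00221, edgeR). Ern1, the sensor IRE1, fell by 3.16 on the log2 scale, whereas Xbp1, the mRNA it splices, had no count in WT 1-cell libraries and measured 1.95, 15.2 and 10.4 CPM in arrested libraries, with a pooled level at least 192-fold above the floor (adjusted p = 0.00394, edgeR). Xbp1 measured 17.2, 5.73 and 2.12 CPM in het 2-cell libraries. Psat1, of serine synthesis, measured 0, 65.7 and 24.6 CPM in arrested libraries and 0 in WT 1-cell libraries, so library 1 did not share the rise. Stress response genes called higher without single libraries numbered 16, 5 and 5 (arrested libraries), 5, 4 and 3 (WT 1-cell libraries) and 2 (only 6), and lower 6, 4 and 5 (arrested libraries), 4, 4 and 4 (WT 1-cell libraries) and 4 (only 6). For heat-shock genes the counts were 7, 1 and 2 (arrested libraries), 1, 1 and 1 (WT 1-cell libraries) and 1 (only 6) higher, and 5, 3 and 2 (arrested libraries), 2, 2 and 2 (WT 1-cell libraries) and 2 (only 6) lower.

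Of 39 antioxidant genes, 10 rose and 2 fell, beside 12.6% and 4.71% of all genes. Fth1 and Ftl1, the ferritin chains that store iron, were among those that rose. Fth1 measured 359, 1016 and 641 CPM in arrested against 78.7, 52.4 and 36.2 CPM in WT 1-cell libraries (log2 difference 3.59, SE 0.48, adjusted p = 0.00161, edgeR), and Ftl1 461, 1352 and 760.5 CPM against 127, 87.99 and 79.2 CPM (log2 difference 3.13, SE 0.49, adjusted p = 0.00272, edgeR). Both were raised in library 1 as well. Glrx, glutaredoxin, and Txnrd1, thioredoxin reductase, fell, with log2 differences of -2.897 and -2.9997. Antioxidant genes called higher without single libraries numbered 12, 8 and 10 (arrested libraries), 7, 6 and 5 (WT 1-cell libraries) and 4 (only 6), and lower 4, 2 and 4 (arrested libraries), 2, 2 and 2 (WT 1-cell libraries) and 2 (only 6). Of 53 genes of pyruvate, glycolysis and the TCA cycle, 10 rose and 2 fell, beside 12.6% and 4.71% of all genes. Slc2a3, a glucose transporter, measured 1.86, 17.7 and 3.67 CPM in arrested and 0.0609, 0.175 and 0.0912 CPM in WT 1-cell libraries (log2 difference 6.09, SE 0.99, adjusted p = 0.00321, edgeR). Ldha measured 0.486, 62.5 and 19.5 CPM in arrested against 0.426, 0 and 0.137 CPM in WT 1-cell libraries, and Ldhb, the egg's abundant lactate dehydrogenase, 2417, 472 and 716 CPM against 7532, 4405 and 3883 CPM. The call of Ldha was lost without WT 1-cell library 3 (adjusted p up to 0.0501). The call of Ldhb was lost without arrested library 2 or 3, or without WT 1-cell library 1, 2 or 3 (adjusted p up to 0.0954). Metabolic genes called higher without single libraries numbered 17, 7 and 7 (arrested libraries), 5, 4 and 4 (WT 1-cell libraries) and 1 (only 6), and lower 7, 3 and 1 (arrested libraries), 1, 1 and 1 (WT 1-cell libraries) and 1 (only 6).

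Among 70 DNA methylation and chromatin factors, 5 rose and 10 fell, beside 12.6% and 4.71% of all genes (median -0.43). Smc3, a cohesin ring subunit, measured 18.5, 15.6 and 20.2 CPM in arrested against 290.2, 359 and 269.6 CPM in WT 1-cell libraries (log2 difference -4.08, SE 0.37, adjusted p = 0.000682, edgeR), and 32.8, 40.6 and 56.2 CPM in het 2-cell libraries, where arrested embryos were again called lower (log2 difference -1.26, adjusted p = 0.0465). Dnmt1, the maintenance DNA methyltransferase, measured 18.1, 3.24 and 9.02 CPM in arrested and 157, 99.99 and 86.2 CPM in WT 1-cell libraries (log2 difference -3.504, SE 0.62, adjusted p = 0.00434, edgeR). H2afz, the histone variant H2A.Z, rose, at 228, 888 and 535 CPM in arrested against 81.6, 82.6 and 86.1 CPM in WT 1-cell libraries (log2 difference 2.72, SE 0.50, adjusted p = 0.00521, edgeR), but stayed below het 2-cell embryos (1237, 2450.2 and 2874 CPM, log2 difference -1.99, adjusted p = 0.0365). All 3 arrested libraries were outside the WT 1-cell range for each of these genes. Chromatin factors called lower without single libraries numbered 19, 8 and 7 (arrested libraries), 7, 7 and 6 (WT 1-cell libraries) and 3 (only 6), and higher 8, 2 and 3 (arrested libraries), 3, 1 and 1 (WT 1-cell libraries) and 1 (only 6).

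Markers of other cell types were examined because follicle, oviduct or blood cells can accompany embryos. Of 23 granulosa and cumulus markers, 12 passed the filter, 2 rose (Tnfaip6 and Amhr2) and none fell, beside 12.6% and 4.71% of all genes. Granulosa markers called higher without single libraries numbered 4, 2 and 2 (arrested libraries), 2, 2 and 2 (WT 1-cell libraries) and 0 (only 6). Their summed level over all 23 was 29.2, 143 and 43.7 CPM in arrested, against 52.8, 69.98 and 64.1 CPM in WT 1-cell libraries, highest in arrested library 2. Fshr, Inha, Hsd3b1, Ptx3 and Lhcgr had no count in any arrested library, and 12 of the 23 markers had none in any WT 1-cell library. Of 10 oviduct and epithelial markers, 8 passed the filter, 5 rose and none fell, beside 12.6% and 4.71% of all genes. Oviduct markers called higher without single libraries numbered 6, 4 and 4 (arrested libraries), 2, 2 and 1 (WT 1-cell libraries) and 1 (only 6). Their sums were 9.81, 202 and 89.97 CPM in arrested and 2.01, 4.84 and 3.65 CPM in WT 1-cell libraries. The sums were 166, 184 and 226 CPM in het 2-cell and 279, 273 and 182 CPM in WT 2-cell libraries. Pax8 had no count in any arrested library, and 6 of the 10 markers had none in any WT 1-cell library. Of 10 blood markers, 4 passed, 3 rose and 0 fell, beside 12.6% and 4.71% of all genes. Blood markers called higher without single libraries numbered 4, 3 and 3 (arrested libraries), 3, 3 and 3 (WT 1-cell libraries) and 2 (only 6). Their summed level was 6.404, 383 and 175 CPM in arrested and 0.366, 0.233 and 0.0456 CPM in WT 1-cell libraries. The alpha-globin pair made up most of it. Hba-a1 measured 3.65, 178 and 82.3 CPM in arrested, 79.2, 129 and 141 CPM in het 2-cell, 181, 258 and 180.0 CPM in WT 2-cell and 0.0609, 0.0583 and 0 CPM in WT 1-cell libraries, while the leukocyte genes Ptprc and Tyrobp had no count in either 1-cell group. Of 10 sperm markers, 5 passed, 1 rose and 0 fell, beside 12.6% and 4.71% of all genes. Sperm markers called higher without single libraries numbered 2, 1 and 1 (arrested libraries), 0, 0 and 0 (WT 1-cell libraries) and 0 (only 6). Their sums were 6.65, 8.97 and 3.55 CPM in arrested and 7.798, 6.53 and 3.74 CPM in WT 1-cell libraries. Granulosa, oviduct and blood marker sums were highest in arrested library 2 among the arrested libraries, the library most unlike WT 1-cell embryos, and their part in the results was not tested.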

How the data were processed

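A kit for full-length mRNA of single cells was used for amplification before sequencing, per the labels' protocols. Reads were trimmed with Trim Galore 0.6.4, aligned with HISAT2 2.1.0 and counted per gene with featureCounts 1.6.5 on mm10, as the submitters' processing notes list them. Not given in the sources used here are the annotation release, the strand setting and how multimapping or duplicate reads were handled. The authors deposited 1 table of raw counts for 56196 genes. 28 symbols had been turned into dates, and 27 were restored from their gene identifiers.

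Genes were filtered with filterByExpr, scaled by TMM and fitted with edgeR 4.0.16 (R 4.3.3), 12 libraries in 4 groups sharing 1 estimate of spread. Genes with a Benjamini-Hochberg adjusted p under 0.05 were called, and SE is the size of the log2 difference divided by the root of the F statistic. Het 1-cell libraries were left out because the counts of abundant genes are flattened in 2 of the 3. Where a group had no count, the fold is a bound from counts pooled over the libraries of each group, with 3 counts in place of 0 (0.0540 CPM in WT 1-cell and 0.0604 CPM in arrested embryos). For 1 to 3 counts the ratio has a 95% exact interval. Floors and intervals cover counting error only. The procedure was run on simulated counts with a common spread for all genes and libraries. That run does not cover arrested libraries as unlike each other as these. Alternatives were RLE scaling, no filter, DESeq2 1.42.0, other sets of libraries, leaving out each library, and a replicate block.

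The libraries, gene lists and tests were chosen with earlier results of these data known. Genes are named as follows: the 12 highest and 12 lowest log2 differences among called genes with at least 10 CPM on average over the 6 libraries, groups that do not overlap and an established symbol, up to 4 called members per list and direction by p, and any two-cell-stage gene with at least 10 CPM in any library. mt-Nd6, Sf3a3, H1foo, Tdpoz3, genes with marker roles and the genes of the closing section were named after their values were seen. Some genes that the rule names are not reported here.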

Additional observations from a re-analysis of the deposited data

How the results depend on the processing

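The 3924 genes called in either direction became 6636 with DESeq2 and 579 with only the 6 libraries compared in the fit. That fit tested 16065 genes and estimated the spread without the 2-cell libraries, and the reason for its lower count was not tested. With 1 library left out the count ran between 1372 and 7080, lowest without WT 1-cell library 2 and highest without arrested library 1. RLE scaling gave 3916, no filter on low counts 4145, and all 15 embryo libraries 4624. Arrested and WT 1-cell libraries with the same number did not deviate together (correlations of deviations over genes -0.06, -0.01 and -0.05). The main fit did not pair them, and these values cannot show whether libraries shared a female or a day. A replicate block gave 2193 calls.

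None of the 169 named genes that were called changed direction under any of these alternatives in which they were tested. They were named from these same libraries, so a kept direction is not separate support. Tcstv1 and Arg2, not called, changed sign when 1 library was left out (log2 differences -1.36 to 0.0088 and -0.152 to 1.94). Of the 169, 165 were called with RLE scaling, 159 without the filter, 169 with DESeq2 and 162 with all 15 embryo libraries. With only the 6 libraries 77 were called, but some of the 169 were not tested in that fit. With the replicate block 143 were called. Without 1 library the number ran between 115 and 168. In the fit of only the 6 libraries, 347 of all 16065 genes tested were called higher. There, 12 of 13 mitochondrially encoded genes and 21 of 51 two-cell-stage transcripts were called higher. The same fit called 4 of 80 ribosomal protein genes, 1 of 49 checkpoint and p53 genes and none of 54 initiation genes higher. The checkpoint and initiation lists were thus called higher no more often than all genes. Leaving out 1 library leaves 2 in its group. At the present depth a gene with no count in a group of 3 libraries may still be present below about 0.0540 CPM in WT 1-cell and 0.0604 CPM in arrested embryos.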

Other observations

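Some genes placed arrested embryos outside the range between WT 1-cell and het 2-cell embryos. Of the 22730 genes tested, 137 were called lower in arrested embryos than in both groups, of which 120 are protein coding and 135 were also called lower than in WT 2-cell embryos. Higher than in both were 7. Another 61 genes lay below WT 1-cell and above het 2-cell embryos, and 117 above WT 1-cell and below het 2-cell embryos. Both contrasts use the same arrested libraries, so a low value in them counts in both, and these counts are a description with genes named after their values were seen.

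The 137 genes are 0.603% of those tested, and 62 of them were called lower than in WT 1-cell embryos in all 6 fits that leave out 1 library. They included 6 of 71 RNA polymerase II and spliceosome genes and 4 of 70 nucleolar genes. Of those 6, Sf3a3 kept its call against WT 1-cell embryos in all 6 of those fits. Polr2d, Sf3b3, Snrpa1 and Tbp kept it in 4 each, and U2af1 in 0. Of the nucleolar genes, Ddx18, Nop58 and Wdr75 kept it in all 6 and Wdr12 in 2. Pwp2, of the small-subunit processome, had no count in any arrested library and measured 2.14, 6.403 and 7.599 CPM in het 2-cell and 4.45, 0.583 and 1.69 CPM in WT 1-cell libraries (edgeR adjusted p = 0.00664 against WT 1-cell and 0.0219 against het 2-cell embryos). Its call against WT 1-cell embryos held in all 6 of those fits. Among the 7 higher genes, Lars2, the mitochondrial leucyl-tRNA synthetase, measured 413, 222 and 346 CPM in arrested, 125, 117 and 89.5 CPM in het 2-cell and 149, 102 and 98.02 CPM in WT 1-cell libraries (log2 differences 1.49 and 1.56, edgeR adjusted p = 0.0158 and 0.0307 against WT 1-cell and het 2-cell embryos). None of the 7 kept its call against WT 1-cell embryos in all 6 fits, and Lars2 lost it without WT 1-cell library 2 and without WT 1-cell library 3. Reads of mitochondrial ribosomal RNA can align to Lars2, and their part was not tested.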
